A study of Mus musculus with 20 samples.

Results

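The 7 genes described here, Gata4, Gata6, Sox17, Sox7, Foxa2, Hnf4a and Pdgfra, are regulators and markers of the endoderm lineages, and their open chromatin was read from a list of peaks measured in mouse embryonic stem (ES) cells. A peak was counted at a gene when it overlapped the gene in the GENCODE annotation or lay within 50000 bp of it, which gave 60 of the 102373 peaks in the list. ATAC-seq, in which a transposase inserts adapters into accessible DNA, had been performed in 20 libraries, that is 10 groups with 2 replicates each. All libraries came from ZHBTc4 cells, in which Pou5f1 (encoding OCT4) is expressed under a Tet-Off promoter that doxycycline (dox) turns off. The cells also carried the cell cycle reporter YPet-MD together with lentiviral SNAP-MD-OCT4 or SNAP-MD*-OCT4 under a PGK promoter. MD-OCT4 carries a degron that strongly lowers its level, without removing it fully, at mitosis and early G1, and MD*-OCT4 carries an inactive form of it. In 16 libraries the cells had been kept in 1 ug/ml dox for 40 h and separated by flow sorting into 4 phases (early G1, late G1, S phase, and late S with G2), while 4 libraries came from cells that had neither been sorted nor received dox. All cells grew in serum with leukemia inhibitory factor, CHIR99021 (an inhibitor of GSK3) and PD184352 (an inhibitor of MEK).

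The list joined the peaks of the experiments with dox, 16 libraries, into 1 set of coordinates and gave no height, count or score for any peak or library. It therefore shows where a peak was called in at least 1 of these experiments, without saying in which. A width given below is that of the merged coordinates, which can exceed the width of the peak in any single experiment. Differences between MD-OCT4 and MD*-OCT4, between phases and between replicates could not be computed from it, the depth is unknown, and no replicate error exists for any value below. Counts over the 7 genes are set beside the same counts over all protein-coding genes or all peaks as descriptions, without a test, and intervals are 95% intervals that cover counting error only. RNA was not part of these data, so an open start site is not a statement on expression.

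GATA4 and GATA6 are zinc finger transcription factors, and GATA6 drives the inner cell mass towards primitive endoderm, the source of the yolk sac endoderm, against the epiblast fate that ES cells represent. The SOXF factors SOX17 and SOX7 act in the same lineage, and SOX17 also in definitive endoderm. SOX17 can pair with OCT4 on a compressed form of the motif that OCT4 and SOX2 share. FOXA2 is a pioneer factor of definitive endoderm, HNF4A a nuclear receptor of visceral endoderm and liver, and PDGFRA a receptor tyrosine kinase by which primitive endoderm cells are recognised.

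Sequences of 6 regions are printed as examples of the start sites and motif matches described below. They are read from GRCm38, 5′ to 3′ on the strand of the gene, and capitals mark matches to the motifs defined in the next paragraph. The upstream Hnf4a promoter held the narrowest peak at any start site of the 7 genes, and the internal Hnf4a promoter, of which the 212 bases before the RefSeq start that lie outside exons are shown, held none.
Hnf4a upstream promoter peak, chr2:163506606-163506765: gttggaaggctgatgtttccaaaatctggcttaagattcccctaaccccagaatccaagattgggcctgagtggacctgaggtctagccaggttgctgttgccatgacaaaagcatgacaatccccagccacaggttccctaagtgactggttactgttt
Hnf4a internal promoter, chr2:163546943-163547154: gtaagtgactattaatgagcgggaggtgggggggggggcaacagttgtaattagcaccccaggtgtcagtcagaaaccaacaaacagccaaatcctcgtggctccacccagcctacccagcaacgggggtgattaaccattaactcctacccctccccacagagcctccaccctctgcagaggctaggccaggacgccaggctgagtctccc
A peak downstream of Pdgfra and a peak in an intron of Gata4 were 2 of the 3 distal peaks in which a GATA match stood with a SOX or FOX match, and 300 bases of each are shown. The SOX match of the Gata4 peak lies outside the bases shown.
Pdgfra downstream peak, chr5:75210006-75210305: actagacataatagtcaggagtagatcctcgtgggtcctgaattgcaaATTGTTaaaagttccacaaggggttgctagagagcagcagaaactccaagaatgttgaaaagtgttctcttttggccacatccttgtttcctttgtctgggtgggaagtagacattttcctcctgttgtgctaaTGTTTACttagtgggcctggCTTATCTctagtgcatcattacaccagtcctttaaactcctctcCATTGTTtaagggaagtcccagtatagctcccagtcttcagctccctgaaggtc
Gata4 intronic peak, chr14:63256043-63256342: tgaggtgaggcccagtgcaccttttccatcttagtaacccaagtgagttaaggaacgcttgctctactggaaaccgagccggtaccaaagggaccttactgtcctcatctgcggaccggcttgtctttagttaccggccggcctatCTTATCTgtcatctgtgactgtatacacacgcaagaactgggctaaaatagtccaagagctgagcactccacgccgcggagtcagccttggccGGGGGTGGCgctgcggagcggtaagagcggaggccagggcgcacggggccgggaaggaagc
The Foxa2 distal peak with the most SOX matches and the Sox17 distal peak nearest to a start site of that gene, which held a FOX match, are given whole.
Foxa2 downstream peak, chr2:148036971-148037118: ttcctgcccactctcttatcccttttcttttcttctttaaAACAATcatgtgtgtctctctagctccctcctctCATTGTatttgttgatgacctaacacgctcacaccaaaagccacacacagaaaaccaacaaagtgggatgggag
Sox17 downstream peak, chr1:4479639-4479928: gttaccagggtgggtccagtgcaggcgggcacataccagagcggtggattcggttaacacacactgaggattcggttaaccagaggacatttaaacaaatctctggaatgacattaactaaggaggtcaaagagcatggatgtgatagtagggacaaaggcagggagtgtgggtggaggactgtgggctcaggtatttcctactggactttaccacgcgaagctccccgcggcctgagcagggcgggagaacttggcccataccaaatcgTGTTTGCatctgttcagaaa

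A match was an occurrence of the letters on either strand. For GATA the letters were AGATAAG, or the same with T in place of its leading A. For SOX they were AACAAT, or the core ACAAT followed by G. For FOX they were TGTTTAC, or the same with G in place of its A. For HNF4 they were CAAAGTCCA. They were ATGCAAAT for OCT, ATCAAAG for TCF/LEF, TCAAGGTCA for ESRRB and GGGNGTGGC for KLF. The OCT4::SOX2 motif was CATTGT, 1 free base and ATGCAAAT with at most 2 mismatches in all, and the compressed OCT4-SOX17 motif was the same pair of parts with no base between them. CTCF was searched by its consensus with at most 1 mismatch. The SOX letters overlap each other and the CATTGT part of the composite motifs, so that 2 SOX matches can lie at 1 place. A match is a run of letters and not a bound site.

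All 7 genes had a peak within 1000 bp of a transcription start site (TSS) of at least 1 of their transcripts, where 70.4% of 21938 protein-coding genes did. At the annotated 5′ end alone, the count was 6 of 7, against 66.1% of protein-coding genes, and the exception was Gata4. The widest of these peaks measured 2078 bp at Sox17, 1390 bp at Foxa2, 1367 bp at Gata6, 1319 bp at Gata4, 1129 bp at Sox7, 1041 bp at Pdgfra and 160 bp at Hnf4a. Thus 6 genes had a TSS peak of at least 1000 bp, a width chosen after the values were seen, and Hnf4a stood apart with a peak narrower than the widest TSS peak of 99.7% of the genes that had one. Of all protein-coding genes 43.9% had a TSS peak that wide, and the share rose with the number of annotated TSS, from 22.2% of genes with 1 TSS to 69.2% of genes with 7 or more. The 7 genes had between 1 TSS (Sox7) and 9 (Pdgfra). When only the annotated 5′ end was used, 3 of the 7 genes (Gata6, Sox7 and Foxa2) had a peak of at least 1000 bp, where 40.3% of all protein-coding genes did, so the count of 6 rested on internal TSS of Gata4, Sox17 and Pdgfra.

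**Figure D1:**
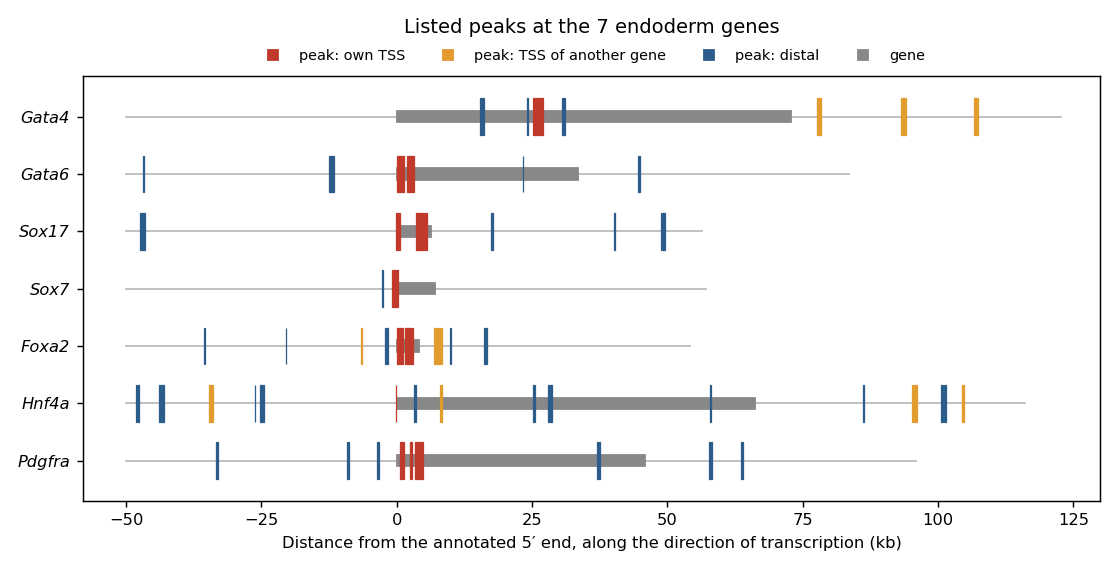
Positions of the 60 peaks at the 7 endoderm genes, with the distance from the annotated 5′ end on the x axis (kb, positive along transcription) and 1 row per gene. Grey boxes are genes, grey lines are the 50000 bp flanks, and coloured boxes are peaks at a TSS of the gene itself (15), at a TSS of another gene (10) or distal (35), with box width equal to peak width apart from a thin outline. Sox7 has 2 peaks, both at or near its start, and the outermost peaks of Hnf4a and Gata4 include those at the TSS of neighbouring genes.

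Among the GATA factors, Gata4 (chr14:63198922-63271692, minus strand) had 8 peaks. The peaks in the gene measured 1319 and 529 bp at a pair of internal TSS (positions 63245271 and 63245248), 164 and 860 bp in introns and 462 bp in a coding exon. The peak nearest to the annotated 5′ end, at 63271692, lay 15326 bp away inside the gene, and the next peak upstream of the gene lay 66800 bp away. The open start of Gata4 in this list was thus internal, and the stretch from 63256367 to 63338491, 82125 bp with the 5′ end inside it, held no listed peak. The remaining 3 peaks lay downstream at the TSS of neighbouring genes, 674 and 921 bp wide at Fdft1, which encodes squalene synthase, and 767 bp wide at Neil2, which encodes a DNA glycosylase. The 860 bp intronic peak, chr14:63255507-63256366, had a GC content of 64.9% and 1 match each to GATA, SOX and KLF, of which GATA and KLF lie in the stretch printed above.

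Gata6 (chr18:11052064-11085635, plus strand) had 7 peaks, and the nearest protein-coding TSS of all of them was its own. A peak of 1367 bp began 75 bp downstream of the annotated 5′ end, covered 3 of its other TSS and also the start of the antisense transcript 1010001N08Rik. It held 2 GATA matches and 1 FOX match. A second peak of 1240 bp followed, 1117 bp of which were coding sequence of the gene, with a GC content of 71.3%. The other 5 peaks were distal and 165 to 535 bp wide, and 3 of them lay upstream in introns of the antisense transcript, 11556 to 46634 bp from the gene. The peak 11022 bp downstream of the gene, 440 bp wide, held a GATA, a FOX and a CTCF match, and after it 107879 bp followed without a listed peak.

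Among the SOXF factors, Sox17 (chr1:4490931-4497354, minus strand) had 7 peaks, of which 3 lay at its own TSS. Those at the upstream TSS were narrow, 346 and 366 bp, and the third, of 2078 bp, lay over internal TSS. A wider TSS peak was present at 2.25% of the protein-coding genes that had one, or 1.59% of all protein-coding genes. Of the 2078 bp peak 1282 bp were coding sequence, and its GC content was 65.5%. The 4 distal peaks were intergenic and measured 249 to 972 bp. The widest, 46517 bp upstream, held 2 FOX matches, the nearest, printed above, held 1, and the outermost one downstream, whose nearest protein-coding gene was Rp1, held SOX, FOX and 2 TCF/LEF matches.

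Sox7 (chr14:63943673-63950732, plus strand) had the fewest peaks of the 7 genes, 2, and 82.1% of protein-coding genes had more. A peak of 1129 bp covered its only annotated TSS and 238 bp of its coding sequence, and a peak of 225 bp lay 2481 bp upstream. Neither peak held a match to any of the 11 motifs. In the other direction the next peak lay 119963 bp from the gene, and the stretch without a peak was 126689 bp long, longer than all but 3.63% of the 102352 stretches between neighbouring peaks of the list. The neighbouring genes 4930578I06Rik and Rp1l1, whose 5′ ends lay 44117 and 48833 bp from that of Sox7, had no peak at a TSS. Although Gata4 lies on the same chromosome, no peak was counted at both, nor at any other pair of the 7 genes.

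Foxa2 (chr2:148042877-148046969, minus strand) had 10 peaks in a window of 104093 bp, or 9.61 per 100000 bp, and 35.2% of protein-coding genes had more on this scale. A peak of 1230 bp covered its 3 protein-coding TSS and a peak of 1390 bp lay over coding sequence, 72 bp from the TSS of a non-coding transcript. Of the latter 822 bp were coding sequence. Peaks of 901 and 407 bp lay 2757 and 3837 bp downstream, at the TSS of the non-coding RNA 9030622O22Rik. A peak of 244 bp upstream lay at the TSS of the microRNA gene Gm27420. The 5 distal peaks were 148 to 629 bp wide and the nearest of them, 1577 bp upstream, was also the widest. The 148 bp peak printed above held SOX letters at 2 places.

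Hnf4a (chr2:163506808-163572910, plus strand) had the most peaks of the 7 genes, 16, but the nearest protein-coding TSS was its own for 6 of them. For 5 it was that of Fitm2, which encodes a protein of lipid droplet formation, and for 5 that of Ttpal. Peaks of 818, 987 and 321 bp lay at the TSS of these neighbours, and R3hdml, whose 5′ end is 14490 bp from that of Hnf4a, had no peak at a TSS. The upstream promoter carried the 160 bp peak that is printed above, which ended 43 bp before the TSS at 163506808. It held no CpG dinucleotide and no motif match. The internal promoters, with TSS from 163546817 to 163550083, had their nearest peak 11246 bp away. The remaining peaks in the gene were 413, 224, 445, 798 and 269 bp wide and lay in introns, the 224 bp one at the TSS of the small nuclear RNA gene Gm25881. Of its 5 TSS positions 1 therefore had a peak within 1000 bp.

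The receptor gene Pdgfra (chr5:75152292-75198215, plus strand) had 10 peaks, all of them nearest to its own TSS among protein-coding genes. At its start 4 peaks followed each other, 694, 221, 385 and 1041 bp wide, and 8 of its 9 TSS positions had a peak within 1000 bp. The annotated 5′ end itself lay 619 bp before the 694 bp peak. Distal peaks lay 3256, 8829 and 33052 bp upstream, in an intron, and 11777 and 17605 bp downstream, and were 362 to 555 bp wide. Both peaks downstream held SOX letters, at 2 places and 1 place, and the nearer one also GATA and FOX, as printed above. Beyond them 147541 bp followed without a peak, longer than all but 2.97% of the stretches in the list.

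The peaks just inside the 50000 bp limit lay 47599 bp from Hnf4a, 46634 bp from Gata6 and 46517 bp from Sox17, and those just outside it lay 50512 bp from Hnf4a and 58308 bp from Sox17.

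Per gene, the 7 genes had a median of 8 peaks (range 2 to 16), and all protein-coding genes a median of 10, with quartiles of 4 and 15. Per 100000 bp of gene and flanks, the medians were 6.58 (range 1.87 to 9.63) and 6.97. The number of peaks at 6 of the 7 genes lay at or below the median of all genes, and that at Hnf4a above it. With flanks of 25000 bp the order turned, with medians of 7 peaks at the 7 genes and 6 at all protein-coding genes. Of 11 other genes of the extra-embryonic endoderm, most of which encode basement membrane proteins or endocytic receptors, the median was 17 peaks, with 28 at Col4a2, 27 at Lamc1, 21 at Sparc, 6 at Gata5 and 3 at Dab2. In 10 genes of gut or visceral endoderm the median was 8, with 11 at Foxa1, 2 at Cer1 and 1 each at Afp and Alb, which encode secreted plasma proteins. Afp and Alb are neighbours, and the peak counted at both is the same one, at a TSS of Afp. The windows of Col4a1 and Col4a2 also overlap, so peaks were counted at both and the values of such neighbours are not independent. Medians were 11 in 7 mesoderm genes, 9 in 7 neural genes and 18 in 7 pluripotency genes, among which Esrrb had 29, Nanog 22 and Klf4 7. Pou5f1 and Sox2, the defining genes of ES cells, had 19 and 15. In these cells Pou5f1 was under a Tet-Off promoter that dox turned off, and tagged OCT4 came from a lentiviral construct. Whether this altered the count at Pou5f1 was not tested. Windows are longer at longer genes, and per 100000 bp the list medians were 8.40 for the extra-embryonic, 7.70 for the gut or visceral, 10.2 for the mesoderm, 8.72 for the neural and 14.7 for the pluripotency genes, against 6.58 for the 7 endoderm genes. On that scale the 7 genes had the lowest median of the 6 lists, and the extra-embryonic genes lay below the mesoderm and neural genes. The lists were compared with flanks of 50000 bp only. The range of the 7 endoderm genes overlapped that of every other list on both scales.

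**Figure D2:**
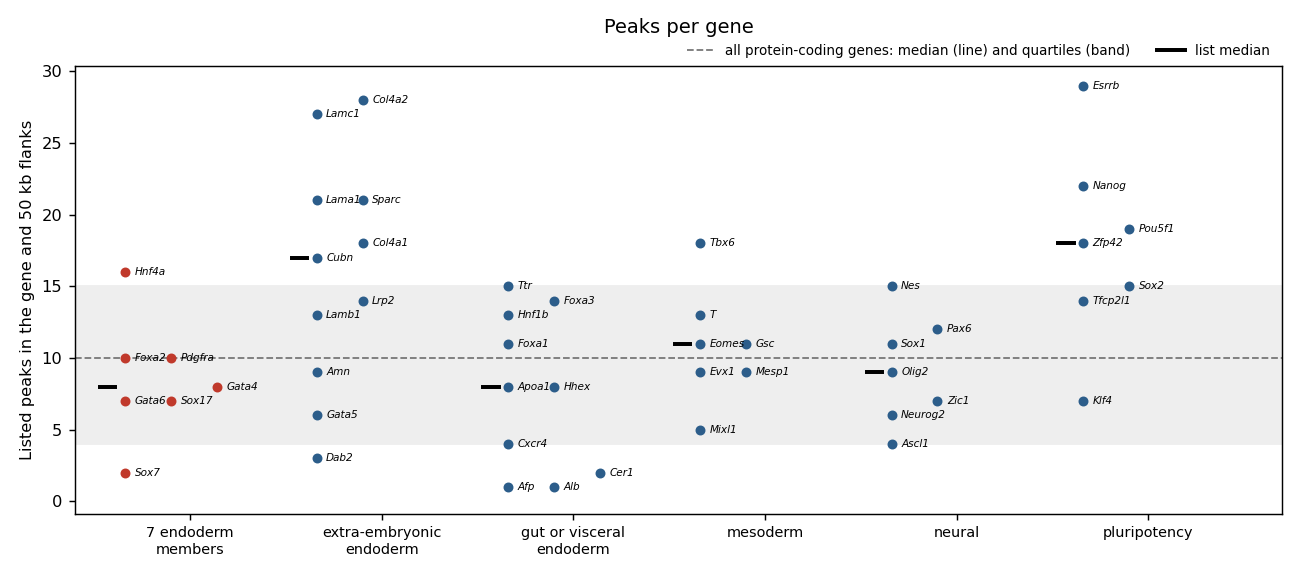
Number of listed peaks per gene, counted in the gene and its 50000 bp flanks (y axis), for the 7 endoderm genes (red) and 5 other gene lists (blue), 1 point per gene. Black bars are list medians, and the dashed line and grey band are the median of 10 and the quartiles of 4 and 15 of all protein-coding genes. Of the 7 genes Sox7 lies below the band and Hnf4a above it.

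A TSS peak was present in 10 of 11 extra-embryonic genes, with Cubn as the exception, and in 6 of 10 gut or visceral genes, with none at Alb, Apoa1, Cer1 and Ttr. All 7 mesoderm and all 7 neural genes had one, as did 6 of 7 pluripotency genes, with none at Nanog. The median width of the widest TSS peak, with genes lacking one at 0, was 1319 bp in the 7 endoderm genes, 1539 bp in the extra-embryonic list and 653 bp in the gut or visceral list. It was 1213 bp in the mesoderm list, 1512 bp in the neural list, 1289 bp in the pluripotency list and 916 bp in all protein-coding genes. A peak narrower than 300 bp as the widest at any TSS was found at Hnf4a and, in the other lists, at Tbx6 (205 bp). Col4a1 and Col4a2 share 1 start region and the same peak of 1908 bp.

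**Figure D3:**
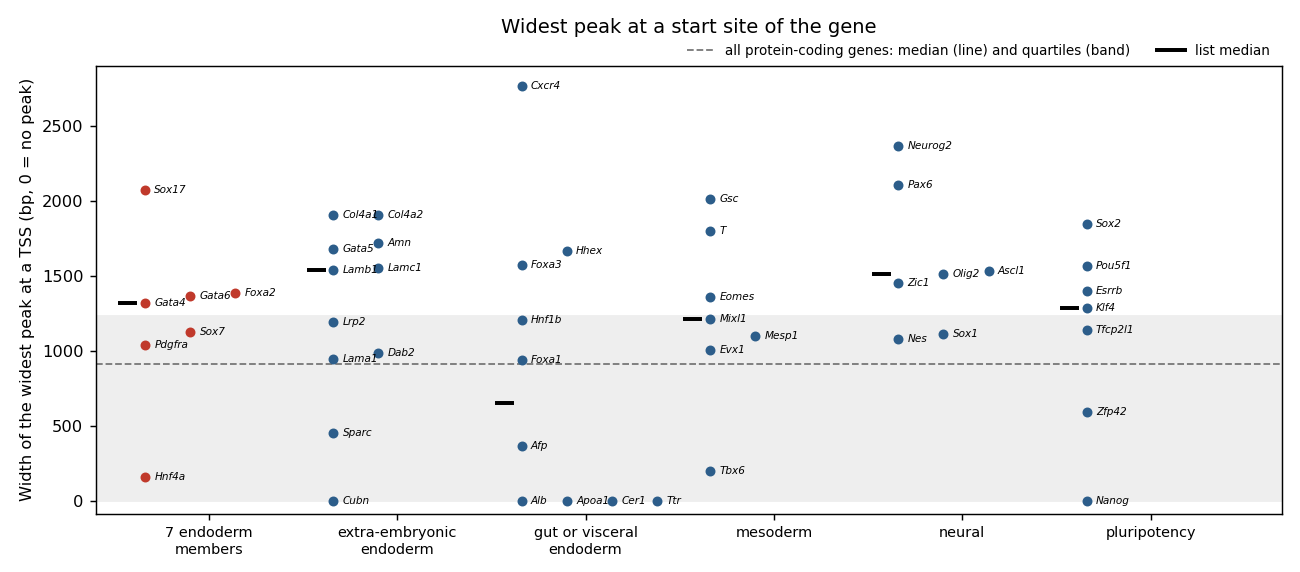
Width of the widest peak within 1000 bp of a TSS of the gene (y axis, bp, with 0 for genes without such a peak) for the 7 endoderm genes (red) and 5 other lists (blue). Black bars are list medians, and the dashed line and band show the median of 916 bp and the quartiles of all protein-coding genes. The points of 6 endoderm genes lie between 1041 and 2078 bp and that of Hnf4a at 160 bp.

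A peak over the coding exons of the gene itself was present at 5 of the 7 genes, where 55.8% of protein-coding genes had one. The peak in the Gata4 exon lay wholly in coding sequence, and the share of coding bases was 90.1% in the second Gata6 peak, 61.7% in the widest Sox17 peak, 59.1% in the wider Foxa2 peak, 7.07% in the other Foxa2 peak at its start and 21.1% in the Sox7 peak. Hnf4a and Pdgfra had none.

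Of the 60 peaks, 25 were promoter-proximal, that is at most 1000 bp from a TSS of any gene (41.7%, Wilson interval 30.1 to 54.3). This was above the 25.1% of all listed peaks and the 28.1% of the 87854 listed peaks that lie in or within 50000 bp of any protein-coding gene. Each window includes the start sites of its own gene by rule, and the 28.1% counts each peak once rather than gene by gene. How much of the difference comes from this was not tested. The number of 25 comprised 15 peaks at the genes' own TSS and 10 at TSS of other genes. With protein-coding transcripts alone, 31.7% of the 60 peaks and 17.6% of all listed peaks were promoter-proximal. Because 4 peaks belonged to the start of Pdgfra and 3 to that of Sox17, the 25 are not independent elements. The centres of the 35 distal peaks lay in introns for 16, between genes for 17 and in coding exons for 2. The median width was 767 bp (interval 385 to 1041) for proximal and 427 bp (290 to 486) for distal peaks, and 815 and 352 bp over the whole list. Fewer than 300 bp were measured for 16 of the 60 peaks, against 35.8% of all listed peaks.

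Base composition was examined because many regulators of development have CpG islands at their starts. The median GC content of the proximal peaks was 59.6% (interval 56.6 to 62.2) against 57.4% in all proximal peaks, so the whole-list value lay within the interval. That of the distal peaks was 52.0% (49.0 to 54.9) against 48.6% in all distal peaks, which lay just below the interval. A peak was called CpG-rich when its GC content was at least 50% and its CpG observed to expected ratio at least 0.6, limits chosen after the values were seen. CpG-rich peaks numbered 13 of the 25 proximal peaks, near the 46.6% of all proximal peaks. Among the distal peaks there were 5 of 35 (14.3%, Wilson interval 6.26 to 29.4), where 2.92% of all distal peaks, and 3.13% of those at any protein-coding gene, were CpG-rich. These 5 were the Gata4 coding exon peak (GC content 74.2%, ratio 0.754), the Gata4 intronic peak (64.9%, 0.888), the Sox7 upstream peak (61.3%, 0.662) and Foxa2 peaks 1577 bp upstream (59.9%, 0.696) and 12026 bp downstream (55.0%, 0.620). They lay 1577 to 14613 bp from the nearest own TSS, and all 5 belonged to 3 genes.

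**Figure D4:**
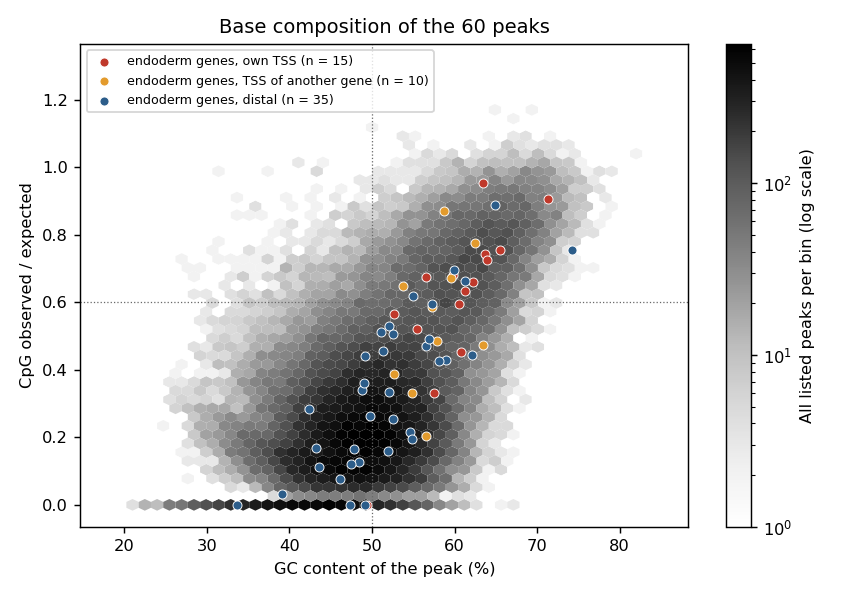
GC content (x axis, %) against the CpG observed to expected ratio (y axis) of the 60 peaks at the 7 endoderm genes, over all listed peaks in grey (number per bin on a log scale, ratios above the axis left out). Dotted lines mark 50% and 0.6. Of the 15 own-TSS peaks (red) 9 lie in the upper right field, as do 4 of the 10 peaks at other TSS (orange) and 5 of the 35 distal peaks (blue).

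The 35 distal peaks were searched for motifs of the factors that the genes encode and of ES cell factors. GATA letters were present in 4 (11.4%, Wilson interval 4.54 to 26.0) where 8.50% of all 76716 distal peaks held them, in introns or flanks of Gata4, Gata6 (2 peaks) and Pdgfra. With the shorter letters AGATAA or TGATAA the order turned, with 25.7% of the 35 peaks against 29.3%. SOX letters were present in 9 (25.7%, interval 14.2 to 42.1) against 34.3%, and FOX letters in 7 (20.0%, 10.0 to 35.9) against 14.6%. A GATA match stood in the same distal peak as a SOX or FOX match in 3 of 35, where 4.51% of all distal peaks held such a pair. At the Pdgfra downstream peak the FOX match (75210188 to 75210194) and the GATA match (75210208 to 75210214) lay next to each other in the printed stretch. SOX letters followed at 75210252 to 75210258. All 3 whole-list shares lay within the intervals of the 35 peaks, so that a difference in either direction was not detectable with this number of peaks. Wider peaks have more room for a match, and the median width was 427 bp for the 35 peaks against 352 bp for all distal peaks. In the central 200 bp of each peak, GATA letters were in 5.71% against 4.07% of all distal peaks. The values were 14.3% against 20.5% for SOX and 8.57% against 6.95% for FOX.

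HNF4 letters were in none of the 35 distal peaks, where 0.640% of all distal peaks held them, and the 1 match among the 60 peaks was in the 1319 bp TSS peak of Gata4. None of the 60 peaks held an OCT match, an OCT4::SOX2 match or a compressed OCT4-SOX17 match. In all distal peaks these were present in 2.52%, 0.731% and 0.356%. The Wilson interval of 0 of 35 reaches 9.89%, and 3 counts of 35, the limit used for a count of 0, are 8.57%, so these counts cannot tell the genes from the whole list. With up to 3 mismatches, 1 of the 35 held an OCT4::SOX2 match (2.86%, against 5.42% of all distal peaks) and 2 a compressed match (5.71%, against 4.08%). Measured from the annotated 5′ end, the nearest listed peak anywhere with an OCT4::SOX2 match was 138868 bp from Pdgfra, and 10.0% of protein-coding genes had one nearer. For the other 6 genes the distance ran from 1228629 bp at Gata6 to 5180940 bp at Hnf4a, and all 6 lay above the median of protein-coding genes, 1062197 bp. The 6 values are not independent, because those of Gata4 (2313480 bp) and Sox7 (2985461 bp), on the same chromosome, were distances to the same peak. The other letters gave another order. The nearest OCT match was closer than the median of 258640 bp at Pdgfra (66552 bp), Gata6 (185193 bp) and Gata4 (228402 bp), and the nearest compressed match closer than the median of 2229391 bp at Pdgfra (447268 bp), Gata6 (523824 bp) and Hnf4a (1715149 bp).

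TCF/LEF letters were present in 2 of the 35 distal peaks against 7.99%, ESRRB in 1 against 3.08% and KLF in 2 against 7.21%. CTCF matches were present in 5 (14.3%, interval 6.26 to 29.4), near the 13.6% of all distal peaks. They lay in the Gata6 downstream peak, in Hnf4a peaks 26080 bp upstream and in an intron, and in Pdgfra peaks 8829 and 33052 bp upstream. Of the proximal peaks, the one at the Fitm2 TSS and the 1041 bp peak of Pdgfra also held a CTCF match.

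**Figure D5:**
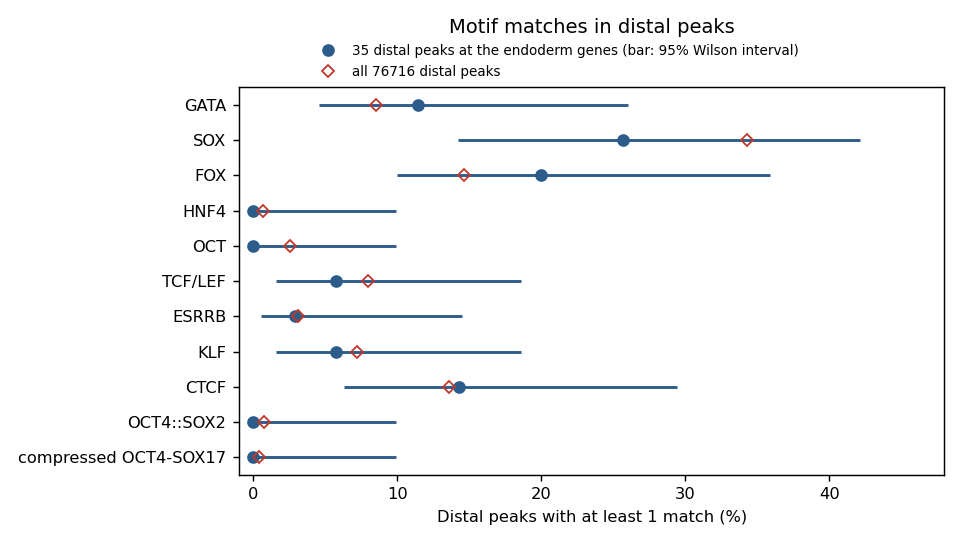
Share of distal peaks with at least 1 match to each of the 11 motifs (x axis, %), for the 35 distal peaks at the 7 endoderm genes (blue points, bars are 95% Wilson intervals) and for all 76716 distal peaks of the list (red diamonds). Every red diamond lies within the blue bar of its row.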

How the data were processed

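The authors aligned paired ATAC-seq reads to GRCm38 with STAR 2.6.1c, removed duplicates with Picard, called peaks with MACS2 2.1.1.20160309 and merged the peaks of the experiments with dox. Whether peaks were called on single libraries or on pooled replicates is not given in the sources used here. The deposited list held 3 columns (chromosome, start and end) and no values, so no test was made and depth is unknown. The study's methods name filters for wide peaks, input peaks and blacklisted regions, but 7 listed peaks exceeded 5000 bp, and whether the list is complete was not established.

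Peaks were assigned to genes and TSS with GENCODE M21, and sequences were read from the RefSeq GRCm38.p6 assembly. RefSeq promoter sequences were matched for Foxa2, Hnf4a and Pdgfra, and not for Gata4, Gata6, Sox17 and Sox7. Coordinates count from 1. Distances run from the nearest edge of a peak. Shares have Wilson intervals and medians order-statistic intervals. Genes and lists were chosen with earlier results of these data known. One gene of the gut or visceral endoderm list is not reported here and was left out of its counts and medians. Named were the 7 genes, protein-coding genes with a TSS in their windows, the lists, own-TSS peaks, the widest and nearest distal peaks and those with GATA plus SOX or FOX, HNF4 or composite matches. Other non-coding neighbours and peaks were named after their values were seen. Functions were tested on simulated data. Versions were matplotlib 3.10.9, pandas 2.3.3, scipy 1.17.1, numpy 2.4.6 and Python 3.11.15. Alternatives changed the flank, TSS set, peak width, joining of peaks and motif letters.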

Additional observations from a re-analysis of the deposited data

How the results depend on the processing

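No paired analysis was possible because single replicates have no values in this list, and for the same reason the planned limma fit of MD-OCT4 against MD*-OCT4, with its alternatives without the block and without each replicate, was not run. Of 74 alternative values, 65 stayed within 1.5 times the count or within the interval of the value reported. Some of these could not have moved, since a motif count of 0 stays 0 with fewer peaks, shorter stretches or fewer mismatches. A wider TSS limit likewise cannot change 7 of 7 genes. The intervals of the motif shares are also wide, so that a GATA share of 25.7% counted as unmoved from 11.4%. The number 65 is therefore not a measure of robustness. With flanks of 100000 bp the 7 genes had 92 peaks. The median over protein-coding genes moved to 6 with flanks of 25000 bp, 16 with 100000 bp, 6 with peaks of at least 300 bp and 9 with peaks joined across gaps of at most 100 bp, while that of the 7 genes was 7, 12, 6 and 7, so their order reversed with flanks of 25000 bp and was equal with peaks of at least 300 bp. With the annotated 5′ end alone, 3 of the 7 genes had a TSS peak of at least 1000 bp, an alternative added after seeing the data. In the central 200 bp of each distal peak the share with FOX letters was 8.57% (6.95% of all distal peaks) and that with ESRRB letters 0, as it was, at 0, among peaks nearest to the genes' own TSS. The shorter letters AGATAA or TGATAA were in 25.7% of the 35 peaks and in 29.3% of all distal peaks, so that the order of the shares turned. Small numbers of peaks limit every share here, and unknown depth limits what an absent peak means.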
